A study of Mus musculus with 38 samples.

Results

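The cytosolic ribosomal protein genes of the mouse were described in back skin and in sorted skin cells after deletion or mutation of Srsf2. Members were chosen by symbol: every Rpl or Rps name with a number, plus Rpsa, Rplp0, Rplp1, Rplp2 and Rpl22l1, without the S6 kinases and without names that carry -ps, and with a mean of at least 10 in a table. Of 49585 genes listed, 88 names matched, 52 of the large subunit (Rpl) and 36 of the small subunit (Rps). The mean was passed by 86 in each of the whole-skin sets and by 84 in each of the sorted sets, and 84 passed in all 4. Rpl10l and Rps12l1 passed nowhere, and Rpl3l and Rpl39l passed in whole skin only. GENCODE M21 (GRCm38) annotates 83 of the 88 as protein coding and 5 as pseudogenes: Rps3a2, Rps3a3, Rps4l, Rpl6l and Rps12l1. The members lie on 19 chromosomes, and their median exon length was 1730 bases against 3637 bases for all genes tested in the knockout skin table.

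Srsf2 encodes a splicing factor that binds pre-mRNA, and P95H is a proline-to-histidine change in it. The whole-skin mice carried Krt14CreER, a tamoxifen-dependent recombinase driven by the keratin 14 promoter of basal keratinocytes, or were its Cre-negative controls, and both received topical 4-hydroxytamoxifen on alternate days. The knockout set held 3 controls, treated for 12, 12 and 10 days, and 9 knockout mice, 3 for each of 4, 10 and 12 days of treatment. Mice of this set differed in their number of tdTomato reporter alleles. The P95H set held 5 control and 2 mutant mice at 12 days and 3 control and 4 mutant mice at 28 days. Sorted cells carrying the reporter came from knockout mice and controls at 10 days, 3 of each. They also came from 3 control and 3 heterozygous P95H mice, called SRSF2-P95H-het, at 20 weeks, after 3 tamoxifen injections and DMBA/TPA, a carcinogen followed by a tumour promoter. Whether the sorted controls carried Cre is not stated in those labels. The labels call the libraries biological replicates and tie none to a litter or day, so p-values measure the spread between these libraries.

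Cytosolic ribosomes are built from a large and a small subunit, each an assembly of ribosomal RNA with many different proteins that are needed in near-equal numbers. Most of these proteins are encoded by 1 active gene each, and processed pseudogenes that resemble the mRNA are common in mammalian genomes. Their mRNAs classically start with a terminal oligopyrimidine (TOP) tract, a C followed by further pyrimidines at the 5′ end, through which growth signals control translation, and skin epithelium draws on ribosome production during growth of the hair follicle and renewal of the epidermis.

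RefSeq promoters (GRCm38.p6, 250 bases before to 50 bases after the annotated start) were found for 63 of the 88 genes, 75 promoters in all. A run of at least 5 pyrimidines whose first base is a C and lies within 2 bases of the annotated start, read on the gene's strand, was present in 22 of the 75 (29.3%), against 8.96% of all 32851 promoters. Searched on both strands, CCGGAAG was in 36% of the members' promoters against 8.86% of all, AAGATGG in 16.0% against 6.34%, and TATAAA in 9.33% against 13.6%. The windows below show 15 bases before and 15 from the annotated start of 4 genes with the run, in capitals, and of 2 without it. All 6 belong to genes that were higher in knockout skin at 10 days, described further on.
Rpl13a: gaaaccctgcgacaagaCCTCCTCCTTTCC
Rpl7a: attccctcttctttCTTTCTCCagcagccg
Rpl38: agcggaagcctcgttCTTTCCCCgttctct
Rpl15: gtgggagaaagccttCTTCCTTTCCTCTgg
Rpl27: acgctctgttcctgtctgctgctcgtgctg
Rpl41: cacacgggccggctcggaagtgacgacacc
These windows lie at chr7:45128731-45128760 (minus strand, Rpl13a), chr2:26910792-26910821 (plus, Rpl7a), chr11:114668565-114668594 (plus, Rpl38), chr14:18270972-18271001 (minus, Rpl15), chr11:101442230-101442259 (plus, Rpl27) and chr10:128549154-128549183 (minus, Rpl41). A run in these letters is a description of the annotated start and not a measured 5′ end.

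Whole-skin values are given as steps. Within a library all values are whole multiples of 1 step. Nearly all undetected genes sit at 1 step, with at most 40 genes per library at 0. Step totals were more alike between libraries than the totals as deposited, so steps were taken as already scaled. How the authors scaled them is not stated in the sources used. Sorted-cell values are the deposited normalised counts. Library totals were 28.5 to 37.5 M (mega) steps in the knockout skin set, 16.1 to 17.4 M steps in the P95H skin set, 45.9 to 92.8 M reads for sorted knockout cells with their controls and 10.98 to 17.2 M reads after DMBA/TPA. The knockout skin libraries at 10 days held 35.5, 36.2 and 37.5 M steps, against 30.2, 28.9 and 28.5 M in their controls. Srsf2 itself stood at 2973 ± 941 normalised counts in sorted knockout cells (SD, n = 3), with a highest value of 3659, against 18782 ± 1602 and a lowest value of 17560 in their controls (n = 3), and at 3256 ± 376 steps (SD, n = 3) in whole knockout skin at 10 days against 2920 ± 65.9 in control skin (n = 3). In the sorted knockout set, keratinocyte markers summed to 1019060 or more normalised counts in every library. Skeletal muscle markers summed to 589 to 976 in knockout cells against 61.6 to 78.7 in controls, and B cell markers to 34.2 to 71.1 against 18.9 to 32.5. Schwann cell markers were lower, at 2557 to 4225 against 5410 to 7301, and the sums of the other marker lists overlapped. The part of these lists in the members' values was not tested. The libraries that stood apart are sorted knockout replicate 2 and P95H skin replicate 1 at 28 days, and how they did is given with the results they touch.

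Levels of the members differed widely. Per kilobase of exon, the 82 protein-coding members of the knockout skin table ran from 24.0 to 41353 steps with a median of 3615, and the 80 of the sorted knockout table from 207 to 128598 normalised counts with a median of 13255. Rplp1, a phosphoprotein of the lateral stalk that recruits elongation factors, had the highest level per kilobase in all 4 tables, at 41353 and 12119 steps in the skin sets and 128598 and 14511 normalised counts in the sorted sets. Rpl24, a large subunit protein, was lowest among coding members in knockout skin. Its annotated exons share 47.0% of their bases with the readthrough gene model Gm28037 on the same strand, and those of Rpl13a share 35.4% with Gm45713 and 2 small RNAs, so the low counts of both are uncertain.

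**Figure D1:**
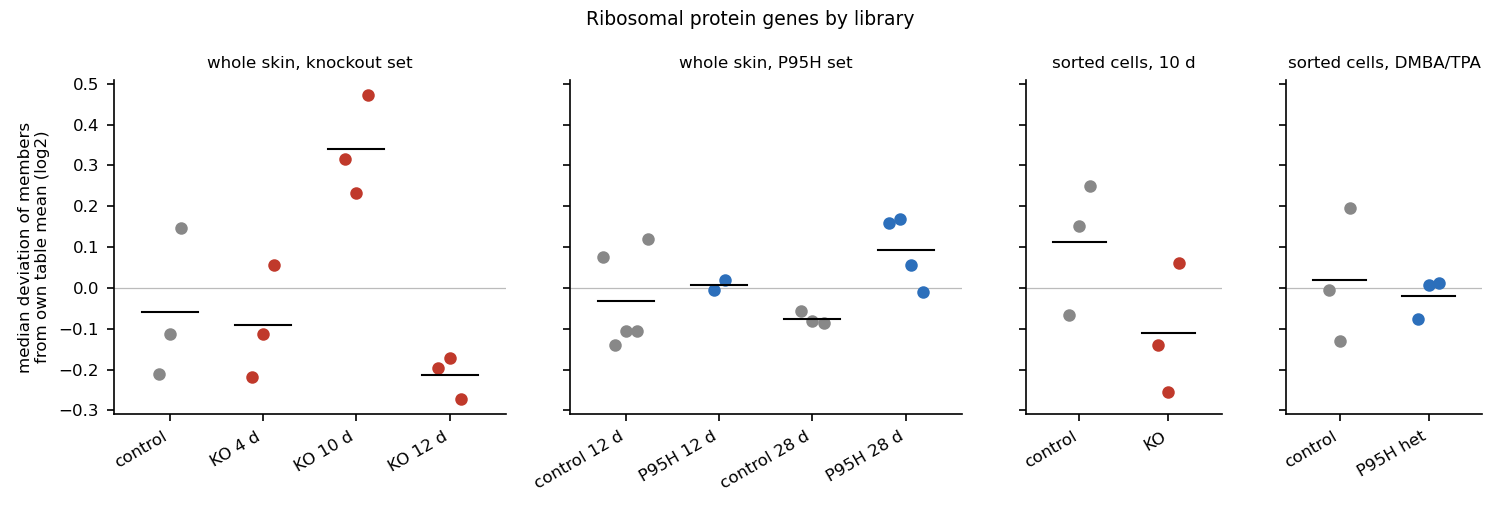
Median deviation of the members in each library, in log2 units from each gene's mean over its own set, with 1 point per library, groups along the x axis, 1 panel per set and a line at the group mean. The 3 knockout libraries at 10 days lie at 0.32, 0.23 and 0.47, above all other libraries of the knockout skin set, of which the highest is a control at 0.15.

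At 10 days of Srsf2 deletion, ribosomal protein genes of both subunits were higher in whole skin than in control skin. Of the 86 members, 39 rose and 1 fell (limma with Benjamini-Hochberg adjustment over all genes, adjusted p below 0.05). Over all 19450 genes tested, 13.3% were called higher and 11.9% lower, and 25.3% were called in either direction. The median log2 difference of the members was 0.41, against -0.02 for all genes, and 81 of the 86 had a difference above 0. The middle 50% of the members fell between 0.30 and 0.48, against -0.36 and 0.31 for all genes, so the members' lower quartile lay near the upper quartile of all genes, and the members lay close to each other. Large subunit coding genes rose in 24 of 50 cases and fell in 1 (median 0.41), and small subunit coding genes rose in 15 of 32 (median 0.42), with all 32 above 0. Groups did not overlap for 53 members that were higher and 1 that was lower, against 22% and 21.1% of all genes. Only control replicate 3 had been treated for 10 days like these knockout mice, and it had the highest member values of the 3 controls, with a median deviation of 0.15. Against that control alone the members' median was 0.20, and limma called 0 of 86 (2 at an unadjusted p under 0.05) and 5 genes in all, with the lone control assumed to vary like the other groups.

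Rpl27, a large subunit protein, was measured at 5692, 5451 and 6204 steps in the 3 knockout mice at 10 days and at 3108, 3511 and 4341 in controls. All 3 knockout values lay above all 3 controls, and the fold was 1.60 (log2 0.67, SE 0.14, adjusted p = 0.00996 by limma). Rpl7a, a large subunit protein that contacts ribosomal RNA, stood at 12329, 13066 and 13592 steps against 7540, 7852 and 9631. Its groups did not overlap either, and it had the smallest adjusted p of the members (log2 0.65, SE 0.11, adjusted p = 0.00568 by limma). Rpl13a, known also for a role in translational silencing of inflammatory mRNAs, was at 869, 886 and 880 steps against 497, 448 and 646. The knockout libraries were close together and all above the controls, at 1.67-fold, the largest log2 difference among members called higher (0.74, SE 0.16, adjusted p = 0.00988 by limma).

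Rpl41, which encodes a very short basic peptide of the large subunit, was at 16523, 15991 and 17932 steps against 8054, 10388 and 13066. Rpl38, which is needed for translation of a subset of Hox mRNAs in the mouse embryo, was at 4393, 4119 and 4933 steps against 2113, 2767 and 3591. In both genes the lowest knockout library exceeded the highest control, and both rose (log2 0.71 and 0.70, adjusted p = 0.0187 and 0.0203 by limma). The controls of both were spread more widely than the knockout libraries, and the call of Rpl38 was lost without control replicate 1 or 2 or knockout replicate 3. Of the small subunit, Rps13 was at 4881, 4585 and 5687 steps against 3133, 3143 and 3819, again without overlap (log2 0.59, SE 0.13, adjusted p = 0.0105 by limma). Rps6, the substrate of the S6 kinases, rose by 0.46 (adjusted p = 0.0328 by limma), from 6855, 6497 and 8335 steps to 9348, 9721 and 10561.

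Rpl5 and Rpl11, which form the 5S ribonucleoprotein and can bind the p53 regulator Mdm2 when assembly stalls, did not pass, with log2 differences of 0.32 and 0.34 (adjusted p = 0.242 and 0.0668 by limma). Of the P stalk, Rplp2 rose (0.48, adjusted p = 0.0212 by limma), whereas Rplp0, the base of the stalk, was at 44432, 33906 and 33968 steps against 29667, 36658 and 35857, with overlap (0.13, adjusted p = 0.635 by limma). Rpsa, also described as a laminin receptor, had 0.43 (adjusted p = 0.0608 by limma), and Rps19, the gene most often mutated in Diamond-Blackfan anaemia, had 0.18 (adjusted p = 0.284 by limma). Of the 20 listed genes of that anaemia, 8 rose and none fell, a share close to that of all members (39 of 86) and above the 13.3% of all genes.

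Rpl3l, a paralog of Rpl3 that replaces it in striated muscle, was the only member called lower at 10 days. It stood at 273, 285 and 416 steps in knockout skin against 1216, 992 and 451 in controls, so the highest knockout library was just below the lowest control (log2 -1.35, SE 0.38, adjusted p = 0.0259 by limma). The call was lost without control replicate 1 or 2 or knockout replicate 1 or 2 (adjusted p = 0.0867, 0.0985, 0.0741 and 0.078). Skeletal muscle markers moved beside it: their 7 genes summed to 541426 to 693034 steps at 10 days and 1062940 to 2312260 in controls, and 5 of 7 fell. Their part in the Rpl3l result was not tested. In sorted cells Rpl3l was at or near 0 in every library.

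Markers of growing hair follicles differed between the same libraries. The 10 measured hair shaft and matrix genes summed to 2175420 to 2948150 steps in knockout skin at 10 days, 2560 to 103068 in controls and 482 to 16515 at 12 days, and all 10 rose at 10 days, with none at the floor. The 5 proliferation markers summed to 13780 to 18147 steps against 4582 to 10590 in controls, and the 5 melanocyte markers to 22223 to 34044 against 1156 to 4125; all 5 of each list rose. Endothelial markers summed to 3862 to 4473 steps against 7180 to 8984, and all 4 fell. The 3 Schwann cell markers summed to 1906 to 2618 steps against 3262 to 4736, and all 3 fell. Of the 6 keratinocyte markers 4 fell, with overlapping sums of 233517 to 294672 and 235851 to 339793. The part of these lists in the higher ribosomal protein values was not tested, and in bulk skin more cells of a type and more RNA per cell cannot be told apart.

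The size of the difference at 10 days depended on the scale. With the values as deposited 64 members were called higher and none lower, and the median of all genes moved to 0.25. With every library set to the same total, none were higher and 1 was lower, and the median of all genes moved to -0.34. Over all genes the calls were 2593 higher and 2320 lower in the main fit, 3418 and 550 as deposited, and 1212 and 6806 with equal totals. Each of the 3 scales multiplies a whole library by 1 factor. The gap of 0.43 between the members' median and that of all genes could therefore hardly change, and its constancy is no support for the result. As a share of all steps the members took 2.15%, 2.10% and 2.25% in the 3 knockout libraries and 1.79%, 2.05% and 2.45% in the controls, which overlap. Leaving out control replicate 2 left 3 members called, leaving out control replicate 1 left 7, and leaving out knockout replicate 3 left 9. Of the genes named above, Rpl27, Rpl7a and Rpl13a kept their call whichever single library of these groups was left out, and lost it against control replicate 3 alone (log2 0.41, 0.43 and 0.44, adjusted p = 0.338, 0.272 and 0.344 by limma).

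At 4 days no member was called (11.3% of all genes were, 7.21% higher and 4.12% lower). None had an unadjusted p under 0.05 by limma, against 5214 of all 19450 genes. The median difference was -0.02, and 31 of 86 were above 0. The controls were treated for longer than these mice, so deletion and treatment time cannot be told apart there. At 12 days no member was called either (1.28% of all genes were, 0.823% higher and 0.458% lower). An unadjusted p under 0.05 by limma was found for 4 members, against 3840 of all 19450 genes. The median was -0.12 and 74 of 86 lay below 0. The 3 comparisons with control share the same control libraries, none of which was treated for 4 days.

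Compared directly, knockout skin at 10 days stood above both neighbouring times. From 4 to 10 days 51 members were higher and 2 lower, with a median log2 difference of 0.43, against 18.9% and 21.4% of all genes, or 40.3% in either direction. From 10 to 12 days 66 members were lower and 2 higher, with a median of -0.54, against 18.3% and 19.2% of all genes, and 68 were lower without overlap, against 24.7%. These comparisons share the 10-day libraries. Small subunit coding genes fell in 30 of 32 cases and large subunit coding genes in 35 of 50. Markers of other cell types moved between the same libraries. Fibroblast markers summed to 1474260 to 3088320 steps at 4 days, 463632 to 646410 at 10 days and 844154 to 1831460 at 12 days, and 6 of 6 fell and then 5 of 6 rose. Macrophage markers summed to 74913 to 139731, then 20967 to 32887, then 57062 to 71340, with 6 of 6 falling and then 5 of 6 rising. Endothelial markers stood at 7962 to 9620, 3862 to 4473 and 6721 to 8094 steps, and all 4 fell and then rose. Skeletal muscle markers stood at 732645 to 1363980, 541426 to 693034 and 1265850 to 1948410, with 1 of 7 falling and then 5 rising. Hair shaft and matrix markers and melanocyte markers went the opposite way, each list rising in full from 4 to 10 days and falling in full from 10 to 12. The part of these lists in the members' changes was not tested. With equal totals 7 were higher and 2 lower from 4 to 10 days, and 3 higher and 11 lower from 10 to 12 days, with the median of all genes at -0.26 and 0.35.

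Rps18, a protein of the small subunit head, was at 12856, 16178 and 18287 steps at 10 days and at 5224, 10405 and 7224 at 12 days. The groups did not overlap, and this was the largest called fall from 10 to 12 days (log2 -1.09, SE 0.23, adjusted p = 0.00452 by limma). Rpl27 was at 2788, 3171 and 3554 steps at 12 days, below all 3 libraries at 10 days (-0.87, adjusted p = 0.00127 by limma), and at 3089, 3482 and 3943 at 4 days. Its values at 4 and 12 days overlapped the controls. Rpl7a kept 8752, 8714 and 8711 steps at 12 days, and fell by 0.57 on the log2 scale (adjusted p = 0.00328 by limma). Of the members called from 10 to 12 days, the 2 that rose were Rpl3l (1.36, adjusted p = 0.0168 by limma) and the pseudogene Rps3a3, described below. The 18 members not called included Rplp0 (-0.18), Rpl5 (-0.28), Rpl22 (-0.29) and Rpl10 (-0.25).

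**Figure D2:**
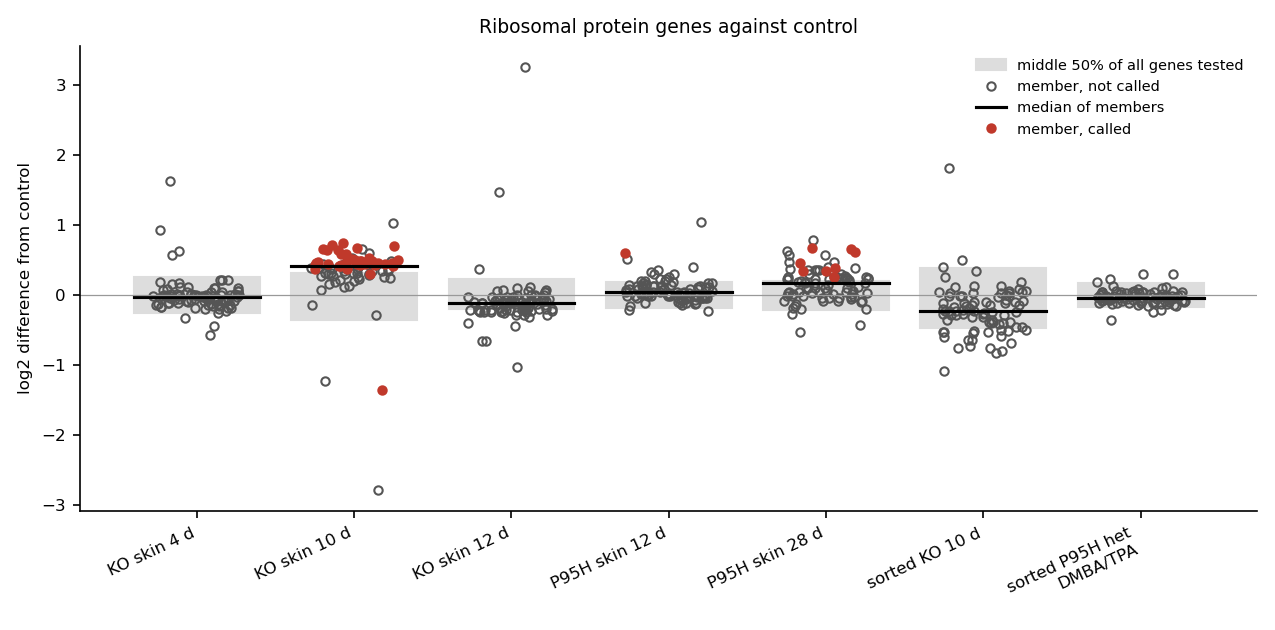
Log2 difference from control of each member, with 1 point per gene and 1 column per comparison, filled where limma called it, a line at the members' median and a grey band over the middle 50% of all genes tested. At 10 days in knockout skin the members' median (0.41) lies above the band (-0.36 to 0.31), and elsewhere it lies inside it, from -0.23 in sorted knockout cells to 0.17 in P95H skin at 28 days.

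In P95H skin fewer members differed. At 12 days 1 member, Rps2, rose and none fell, against 3.96% and 2.97% of all genes (6.93% in either direction), with a median of 0.04. Rps2, a small subunit protein near the mRNA entry tunnel, was at 9489 and 11941 steps in the 2 mutants and at 6710, 5963, 8822, 6342 and 7700 in the 5 controls. Both mutants lay above all controls (log2 0.60, SE 0.15, adjusted p = 0.0314 by limma). The call was lost without mutant replicate 2 (0.43, adjusted p = 0.352) and without control replicate 1, 2 or 4.

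At 28 days 8 of the 86 members rose in P95H skin and none fell, against 6.7% and 5.46% of all genes, a share close to the background. The median was 0.17, and 64 of 86 were above 0. Groups did not overlap for 31 members that were higher and 2 that were lower, against 14.5% and 14.1% of all genes. An unadjusted p under 0.05 by limma was found for 27 of the 86 members and for 5333 of all 18311 genes, shares close to each other. The 8 were Rpl13a, Rpl41, Rps18, Rps2, Rpl11, Rpl10a, Rpl19 and Rps10. Without replicate 1 of the mutants, which stood apart, 6 members were called, all higher, and the median was 0.14.

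Rpl41 was at 5153, 4000, 3589 and 3598 steps in the 4 mutants at 28 days and at 2755, 2477 and 2457 in the 3 controls. All mutants lay above all controls, and replicate 1 was highest (log2 0.66, SE 0.12, adjusted p = 0.00488 by limma). Without replicate 1 it was 0.54 (adjusted p = 0.00493). Rpl13a was at 424, 429, 360 and 368 steps against 262, 252 and 229, also without overlap (0.67, SE 0.15, adjusted p = 0.0115 by limma), and its call was lost without control replicate 4 (0.61, adjusted p = 0.0658). Both genes were among the 39 of 86 members that rose in knockout skin at 10 days, in a separate set of mice and controls with a different library kit. With so many called there, a shared call is no replication, and the limits given above for that set apply. Rpl11 was called in P95H skin and not in that set. Rps18 was at 4180, 2761, 2440 and 2483 steps against 1853, 2129 and 1730 (0.61, adjusted p = 0.0288 by limma), and at 0.43 without replicate 1, and its call was lost without control replicate 1 or 4 or mutant replicate 2. Rpl11 rose as well, from 1763, 1722 and 1798 steps to 2820, 2365, 2133 and 1986 (0.39, adjusted p = 0.0337 by limma).

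No member's P95H difference was called as differing between 28 and 12 days: limma called the interaction for 0 of 86 (0.0109% of all genes). For 4 members its unadjusted p was under 0.05, against 1504 of all 18311 genes. For Rpl13a the difference between effects was 0.55 (SE 0.22, adjusted p = 0.544 by limma). Control skin at 28 days differed from control skin at 12 days in 0 members (0.00546% of all genes). In this comparison 5 members had an unadjusted p under 0.05 by limma, against 2144 of all 18311 genes. There 2 members were higher and 6 lower without overlap, against 5.8% and 4.96% of all genes. Keratinocyte markers summed to 227173 to 286102 steps in mutants at 28 days and 165372 to 199593 in controls, and 3 of 6 rose. Other lists were lower in mutants without overlap: skeletal muscle at 539236 to 705870 steps against 708484 to 833500, endothelial at 2705 to 3453 against 3987 to 4272, and adipocyte at 2350 to 2944 against 3149 to 3600, with no gene of these called. T cell markers stood at 664 to 794 against 890 to 965 and Schwann cell markers at 2760 to 3337 against 3528 to 4270, with 1 of 6 and 1 of 3 called lower. The part of these lists in the members' values was not tested. On the deposited scale, where the median of all genes was 0.59, 1 member was called at 28 days.

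Mutant replicate 1 at 28 days differed from the other 3 mutants member by member. Of 84 members, 15 stood above their mean by over 0.5 on the log2 scale and 14 below. Rplp1 was at 13516 steps against 6087, 5400 and 5466, and Rps28, a small subunit protein at the mRNA exit, was at 3243 against 1392, 1146 and 1046. Rps6 was at 1963 steps against 4882, 4946 and 4674, and Rpl29, a heparin-binding large subunit protein, was at 660 against 2566, 2746 and 2568. The members of this library were therefore both far above and far below those of its group. It held 26684 genes at 1 step, against 23216, 23465 and 23680 in the other 3 mutants, and the cause was not tested.

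In sorted knockout cells, where Srsf2 was depleted, no member was called at 10 days by limma (0.0394% of all genes were, 0.0282% higher and 0.0113% lower). Of the 84 members 5 had an unadjusted p under 0.05 by limma, against 3051 of all 17744 genes. edgeR on the recovered reads called 0 and DESeq2 called 2. The shares over all genes are those of limma, so the 2 calls by DESeq2 are not set against a background here. The median log2 difference was -0.23 against -0.04 for all genes, and 66 of 84 members lay below 0. Groups did not overlap for 14 members that were lower and 2 that were higher, against 15.8% and 12.8% of all genes. Knockout replicate 2 stood apart: 29616 genes were at 0 there against 23227 to 24539 in the other 5 libraries, and members took 1.26% of its counts against 3.51% and 3.78% in the other knockout libraries and 3.67 ± 0.15% in controls (SD, n = 3). Without it the median was -0.16, 1 member was called and 407 genes were called in all, against 7 with it.

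Of the 39 members that rose in whole skin at 10 days, 28 had a log2 difference below 0 in sorted cells, with a median of -0.11. Among all 84 members tested there, 66 lay below 0, with a median of -0.23, so those that rose in skin were not lower than the rest. Rpl38 was at 6710, 6746 and 7187 normalised counts in sorted knockout cells and at 7642, 8522 and 9614 in controls, so all 3 knockout libraries were below all 3 controls (-0.31, SE 0.18, adjusted p = 0.394 by limma). The same gene was 0.70 higher in whole skin. Rpl37a, Rps28, Rpl36 and Rpl17 were also separated upward in skin and downward in sorted cells. The share of all genes separated in this opposite way is not given here. Members lower without overlap in sorted cells, 14 of 84, were near the 15.8% of all genes. Rpl7l1, a paralog of Rpl7, was separated upward in both. It was at 1746, 1800 and 1748 steps in knockout skin at 10 days against 1243, 1180 and 1493 in controls. In sorted cells it was at 4578, 2674 and 2806 normalised counts against 2238, 2482 and 2200. Rpl7a was at 0.04 and Rpl13a at 0.33 in sorted cells (adjusted p = 0.938 and 0.631 by limma). The difference between whole skin and sorted cells was not tested, since the tables were scaled separately.

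**Figure D3:**
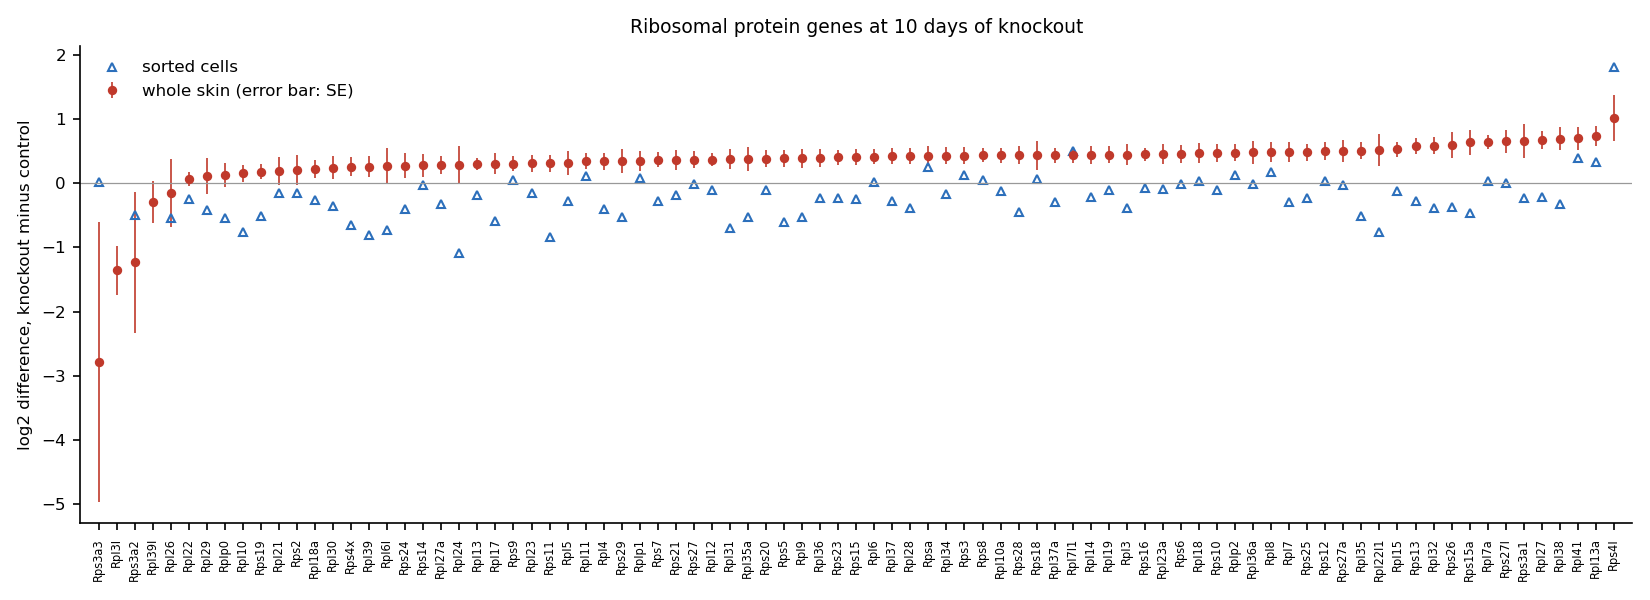
Log2 difference between knockout and control at 10 days for the members named along the x axis, ordered by their value in whole skin, with circles and SE bars for whole skin and triangles for sorted cells. Most circles lie between 0 and 0.74 while most triangles lie below 0, and Rps4l is highest in both.

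Rpl22l1, the paralog that can take the place of Rpl22, stood at 2113, 1880 and 2194 normalised counts in sorted knockout cells and at 3408, 3391 and 3653 in controls. The groups were far apart, yet limma did not call it (log2 -0.76, SE 0.18, adjusted p = 0.145), whereas DESeq2 did (-0.73, adjusted p = 0.00313). Per 100 counts of Rpl22 it was 24.6 ± 5.4 in knockout cells and 34.5 ± 2.0 in controls (SD, n = 3 each), with ranges of 19.0 to 29.8 and 32.3 to 36.1. This ratio within a library does not depend on the scaling between libraries. In whole skin at 10 days it was 15.9 ± 3.0 against 11.6 ± 2.3 in controls, with overlap. Rpl24 was at 141, 75.3 and 215 normalised counts against 282, 269 and 294 (-1.09, SE 0.41, adjusted p = 0.243 by limma), all 3 knockout libraries being lower.

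Rps4l, an annotated transcribed pseudogene of the X-linked Rps4x on chromosome 6 (148354656 to 148355598, plus strand, GRCm38), went the other way. It was at 678, 253 and 612 normalised counts in sorted knockout cells and at 105, 93.2 and 245 in controls. The lowest knockout library, replicate 2, was barely above the highest control, and limma did not call the gene (log2 1.81, SE 0.51, adjusted p = 0.181). It was called without replicate 2 (2.26, adjusted p = 0.0485 by limma) and by DESeq2 (1.82, adjusted p = 0.0121). Per 100 counts of Rps4x it was 1.44 ± 0.24 against 0.28 ± 0.15. In replicate 2 this ratio rests on a low Rps4x, at 19066 normalised counts. Rps4x was at 39523 and 47618 in the other knockout libraries and at 46343 to 54755 in controls. In whole skin at 10 days it was at 464, 906 and 247 steps against 192, 239 and 268, with overlap (1.02, adjusted p = 0.0579 by limma). Coding bases 484 to 573 of both genes are shown, with their differences in capitals. They are the first 90 aligned bases without a gap that hold the most differences, so they are the extreme and not a typical stretch. Here 27 of the 90 bases differ. Identity over all 789 aligned bases is 80.1%, so the copies differ often enough to tell many reads apart.
Rps4x: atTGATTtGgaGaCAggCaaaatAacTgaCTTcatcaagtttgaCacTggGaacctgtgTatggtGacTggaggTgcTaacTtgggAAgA
Rps4l: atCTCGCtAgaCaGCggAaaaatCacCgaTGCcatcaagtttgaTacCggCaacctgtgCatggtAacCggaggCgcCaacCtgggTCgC

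**Figure D4:**
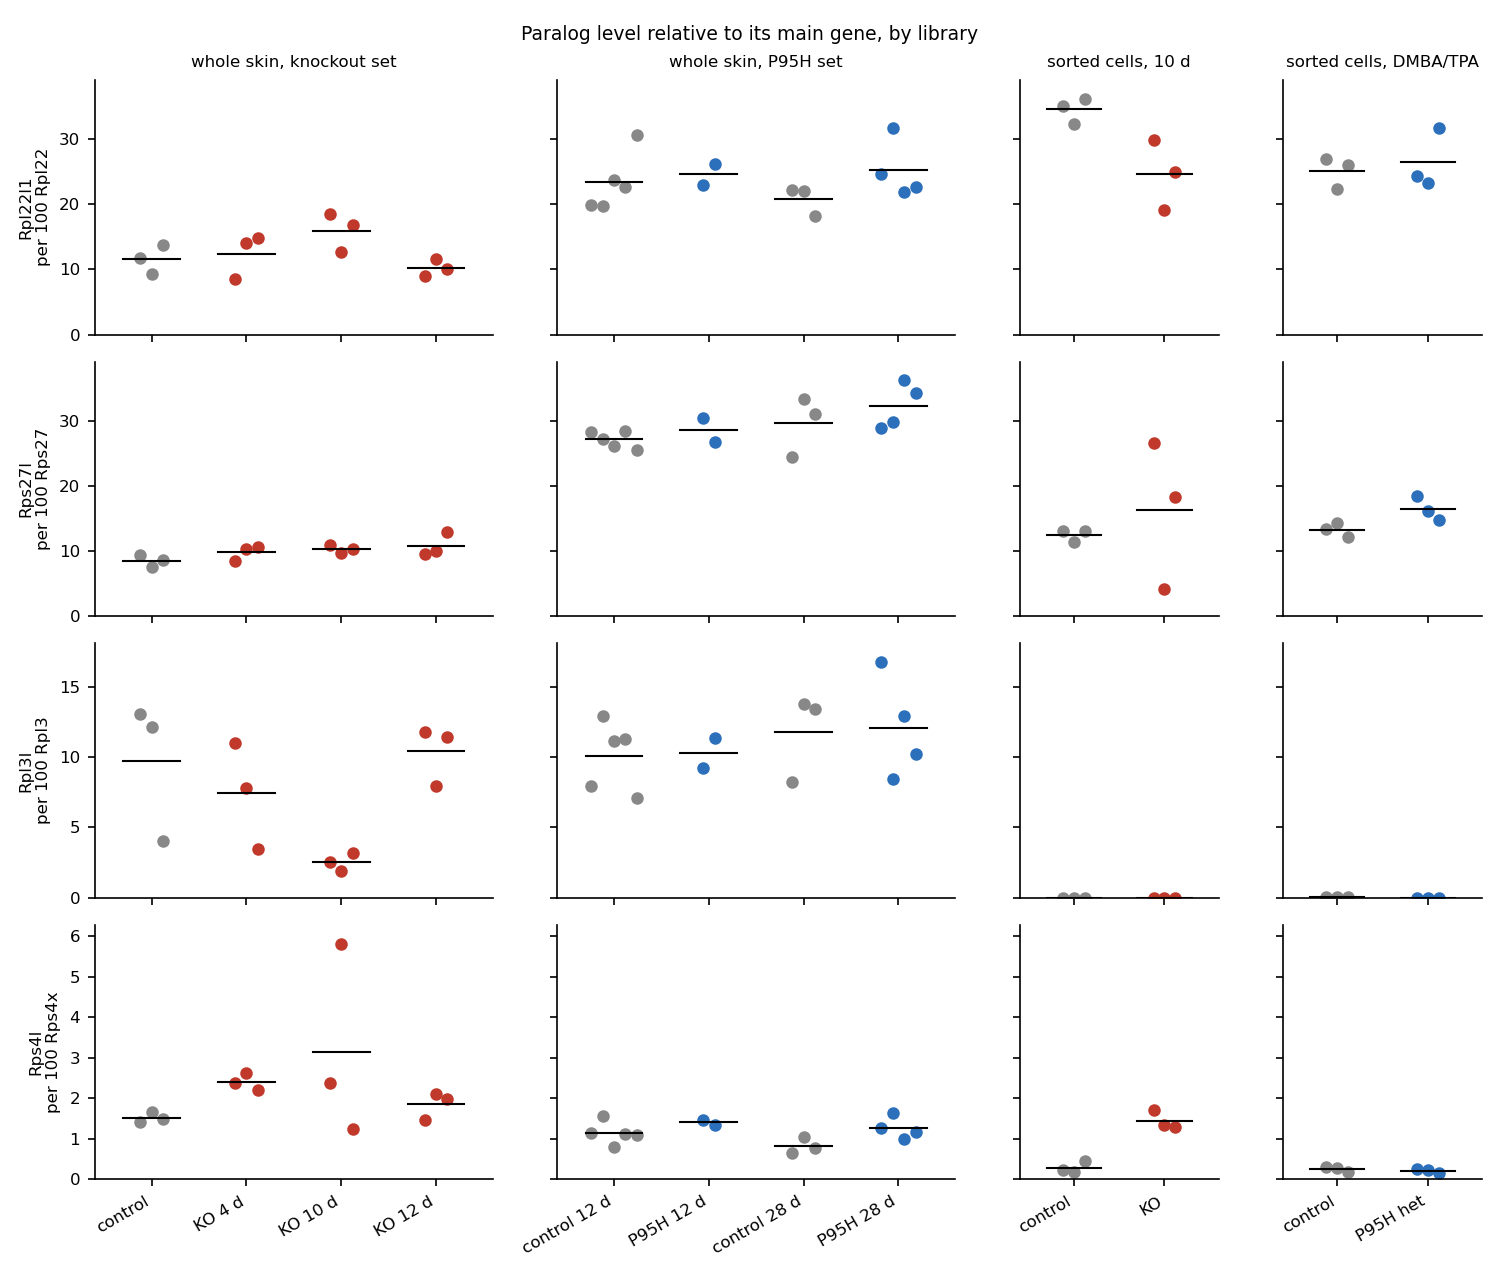
Paralog levels per 100 of their main gene in each library, with 1 point per library, groups along the x axis, 1 row per pair and a line at the group mean. In sorted knockout cells Rpl22l1 per 100 Rpl22 lies at 19.0 to 29.8 against 32.3 to 36.1 in controls, and Rps4l per 100 Rps4x at 1.28 to 1.72 against 0.17 to 0.45.

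Rps3a1, a small subunit protein, and its processed pseudogene Rps3a3 on chromosome 13 (108670603 to 108671397, plus strand) could not be separated with the same confidence. Over 795 aligned coding bases they differ at 9, an identity of 98.87%. Bases 171 to 260 of the coding sequence are shown, with their 2 differences in capitals. No stretch of 90 aligned bases without a gap held more, so most reads would carry few distinguishing bases.
Rps3a1: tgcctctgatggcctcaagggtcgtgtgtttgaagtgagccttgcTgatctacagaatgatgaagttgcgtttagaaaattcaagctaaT
Rps3a3: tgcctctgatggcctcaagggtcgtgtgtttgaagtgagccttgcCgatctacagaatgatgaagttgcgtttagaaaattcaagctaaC
Rps3a3 varied between mice of the same group. It was at 277, 2 and 2 steps at 10 days, at 50, 3904 and 3577 at 12 days, at 41, 3248 and 173 at 4 days and at 204, 158 and 24 in controls. Of these 12 libraries 3 held 3248 steps or more and the other 9 held 277 or fewer, and in the P95H skin set all 14 lay between 12 and 26.

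Rps3a1 was lower where Rps3a3 was high at 12 days: it was at 7015, 3869 and 3776 steps in replicates 1, 2 and 3, and replicates 2 and 3 held the high Rps3a3. The sum of both was 7065, 7773 and 7353 steps at 12 days, 7312, 8022 and 11983 at 10 days, 4507, 7174 and 5161 at 4 days and 6404, 4460 and 6495 in controls. The call of Rps3a3 from 10 to 12 days (log2 6.04, SE 2.2, adjusted p = 0.0482 by limma) was lost without either high library (4.98 and 5.04, adjusted p = 0.141 and 0.136). The fall of Rps3a1 from 10 to 12 days (-0.91, adjusted p = 0.0205 by limma) was measured on these same 2 libraries, which held the lowest Rps3a1 values of the set. Rps3a2, at 99.49% identity over its 792 bases, reached 212, 221 and 267 steps in those 3 libraries and 85 or fewer in the other 9.

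**Figure D5:**
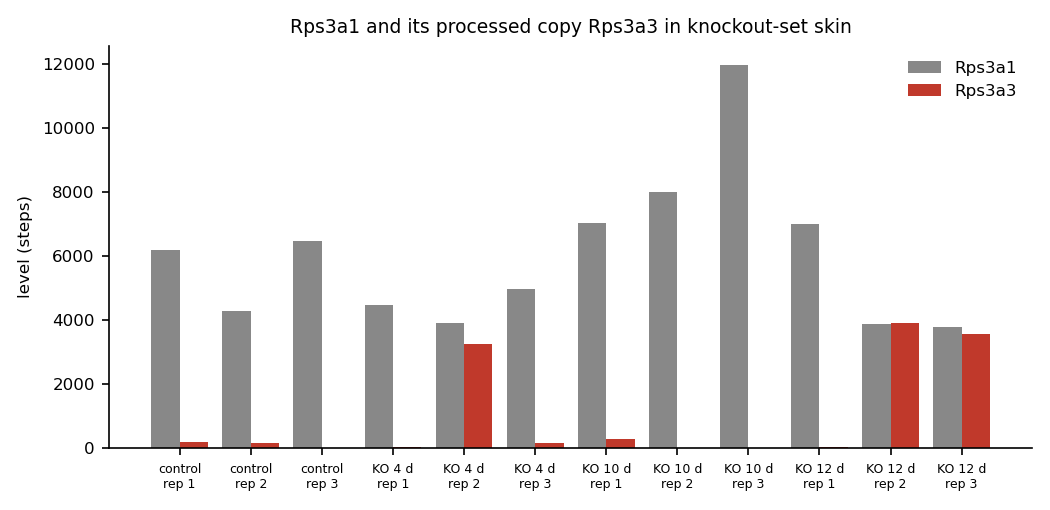
Levels of Rps3a1 (grey bars) and Rps3a3 (red bars) in steps in each of the 12 libraries of the knockout skin set, on a linear axis from 0. Rps3a3 reaches 3248 steps or more in 1 library at 4 days and 2 at 12 days, and lies between 2 and 277 in the other 9.

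Sorted cells after DMBA/TPA showed no called member (0% of all genes were called by limma), and none was called by edgeR or DESeq2. An unadjusted p under 0.05 by limma was found for 2 members and for 2376 of all 14914 genes. The median was -0.04, and 26 of 84 members were above 0. Members took 2.74 ± 0.15% of counts in heterozygous P95H cells and 2.59 ± 0.21% in controls (SD, n = 3 each). Rps27l, a p53-inducible paralog of Rps27, was the 1 member without overlap between the groups, against 11% of all genes that were separated upward. It was at 516.5, 507.6 and 509.0 normalised counts in P95H cells and at 432.3, 387.9 and 425.7 in controls (log2 0.30, SE 0.093, adjusted p = 0.194 by limma). Per 100 of Rps27 it was 16.4 ± 1.9 against 13.2 ± 1.1, and in knockout skin at 10 days Rps27l rose, at 835, 642 and 848 steps against 462, 435 and 580 (0.65, adjusted p = 0.0244 by limma). In sorted knockout cells its log2 difference was -0.00045 (SE 0.47, adjusted p = 0.9997 by limma), and in P95H skin it was 0.08 at 12 days and 0.0056 at 28 days (adjusted p = 0.849 and 0.988 by limma), with overlap in all 3.

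Members were also counted by the pyrimidine run at their annotated start. In knockout skin at 10 days, of 21 tested members with the run 15 rose, with a median log2 difference of 0.46, and of 41 without it 18 rose and 1 fell, with a median of 0.41. From 10 to 12 days 19 of 21 fell with the run and 32 of 41 without it. In sorted knockout cells the medians were -0.11 and -0.24. The groups with and without the run were not compared by a test.

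Other genes of ribosome production and translation were counted in the main fits only. The limits given above for knockout skin at 10 days, the scale and the treatment time of the controls, apply to these counts too. Of 50 ribosome biogenesis genes, 31 rose and none fell in knockout skin at 10 days (median log2 0.56), among them Nop56 (0.97) and Fbl (0.83), core proteins of box C/D small nucleolar ribonucleoproteins, and Nhp2 (0.75), a core protein of the box H/ACA particle (adjusted p = 0.00929, 0.00815 and 0.00607 by limma). Of 10 host genes of small nucleolar RNAs 8 rose (0.77), including Zfas1 (0.89) and Gas5 (0.57). Of 26 translation initiation factor genes 17 rose (0.50), and of 19 elongation and other TOP genes 8 rose (0.37), including the poly(A)-binding protein gene Pabpc1 (0.70). Mitochondrial ribosomal protein genes rose in 14 of 76 cases (0.19), near the 13.3% of all genes, and nuclear genes of oxidative phosphorylation in 1 of 79, with 3 lower. Of 16 growth regulators 2 rose and 1 fell, no more than the share over all genes (13.3% and 11.9%): Mycn (2.64) and Rps6kb2 (0.67), an S6 kinase gene, and Tsc1 (-0.39), a brake on mTORC1, which was the one that fell.

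In P95H skin at 28 days 15 of the 50 biogenesis genes rose and none fell (median 0.32), where 6.7% of all genes were called higher and 5.46% lower, with Nhp2 at 0.70 and Bysl, a small subunit assembly factor, at 0.63 (adjusted p = 0.00232 and 0.00309 by limma). Host genes of small nucleolar RNAs rose in 5 of 10 cases (0.52), including Snhg15 (1.13), initiation factors in 4 of 26 and elongation and other TOP genes in 0 of 19. Oxidative phosphorylation genes rose in 12 of 79 cases (0.27). In sorted knockout cells no gene of any of these lists was called. The medians there were 0.28 for biogenesis genes, with 38 of 50 above 0, and 0.46 for mitochondrial ribosomal protein genes, with 68 of 76 above 0. For the 84 cytosolic members the median was -0.23, and for the 20 Diamond-Blackfan genes it was -0.38, with 2 above 0.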

How the data were processed

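Total RNA of 38 mouse libraries was sequenced. The deposited signal is, per the table names, a normalised count per gene made by the authors; STAR, featureCounts and DESeq2 are named in the submitters' processing notes, without version, and the genome build used is not given in the sources used. In the sorted sets, 100% of values were whole multiples of the library's value for 1 read (tolerance 0.0001). In both whole-skin tables the whole multiples were taken as already scaled between libraries, so these steps were analysed there in place of the normalised counts. The values as deposited were an alternative.

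Genes with a mean of at least 10 were fitted per table with limma 3.58.1 (mean-variance trend, 1 coefficient per group) on log2(value + 1), and two-sided p-values were adjusted over all genes by Benjamini-Hochberg, with a threshold of 0.05. edgeR 4.0.16 and DESeq2 1.42.0 were alternatives on the recovered reads. The other alternatives were equal totals, TMM factors, a pseudocount of 5, no mean filter, only the groups compared, a replicate block, each replicate left out and, chosen after seeing the data, only the control treated for 10 days. The fit was also run on simulated data with independent noise per gene and no shift of a whole library. That run does not bear on the scale or on the libraries that stood apart. Tables were never tested against each other.

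Members, gene lists and tests were chosen with earlier results of these data known. Named genes are, per comparison, the 5 members with the smallest p called in each direction, those with the extreme differences, a fixed set of paralogs and of members with a known role, and up to 4 members of each other list. Members named outside this rule, such as Rpl41 and Rps3a1 in knockout skin, Rps28 and Rpl29 in P95H skin, and the members separated in opposite directions in skin and sorted cells, were chosen after their values were seen. R 4.3.3, python 3.11.15, pandas 2.3.3 and matplotlib 3.10.9 were used. Positions are from GENCODE M21, and sequences from RefSeq (GRCm38.p6) and that annotation. The values of 1 member are not reported here by name.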

Additional observations from a re-analysis of the deposited data

Results flagged for a closer look

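In P95H skin, 34 values were looked at in each of 2 groups, the controls at 12 days and the mutants at 28 days, 68 in all, and 10 held 1 library far from the others of its group. Chance gives about 1 in 20 for a single value, but 9 of the 10 came from mutant replicate 1 at 28 days and are not independent of each other. In that library these were Rplp1 (13516 steps), Rplp2 (7323), Rplp0 (22935), Rpl5 (7887) and Rps28 (3243), all above the other 3 mutants, and Rpl3 (3887), Rpl29 (660), Rps6 (1963) and Rps27l (319), all below them. In mutant replicate 4 at 28 days it was Rpl38, at 505 steps against 690, 728 and 708. In knockout skin, direct tests between times called 53 members from 4 to 10 days, where 40.3% of all genes were called. From 10 to 12 days they called 68, where 37.6% of all genes were called. Controls did not enter these contrasts, so time and treatment length cannot be told apart from the deletion. Rpl38 was lower in all 3 sorted knockout libraries than in all 3 controls (log2 -0.31) and higher in all 3 whole-skin libraries (0.70), and the difference between those effects was not tested.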

How the results depend on the processing

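Members called in knockout skin at 10 days numbered 40 in all, against 64 as deposited, 1 with equal totals, 25 with no mean filter, 17 with only the groups compared, 3 to 53 with a replicate left out, and 0 against only the control treated for 10 days, an alternative chosen after seeing the data. From 4 to 10 days 53 were called, against 9 with equal totals and 23 to 52 with a replicate left out, and from 10 to 12 days 68, against 14 with equal totals and 48 to 67. In P95H skin at 12 days 1 was called, against 0 as deposited, with no mean filter and with only the groups compared, and 0 to 4 with a replicate left out. At 28 days 8 were called, against 1 as deposited, 5 with equal totals, 3 with no mean filter, 3 with only the groups compared, and 1 to 12 with a replicate left out. In sorted knockout cells 0 were called, against 2 by DESeq2 and 0 to 1 with a replicate left out. The cause of these changes was not tested. No difference changed sign among called values. Of 65 calls of named genes, 13 held in every alternative run. Replicate numbers did not pair the libraries: deviations of same-numbered libraries had correlations from -0.46 to 0.84, and in no comparison with 3 or more pairs was every one over 0.1. With the replicate block 45 members were called at 10 days, 55 from 4 to 10 days, 66 from 10 to 12 days, 1 and 16 in P95H skin at 12 and 28 days, and 0 in both sorted sets. Groups of 2 to 5 mice and the depth of whole skin, known only in steps, limit what could be called.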
